A study of Mus musculus with 20 samples.

Results

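Skin from IL-23-injected mice given the antagonist IMO-8400 was compared directly with skin from IL-23-injected mice given the antagonist IMO-3100. The 10 arrays were chosen by the treatment named in their labels, 5 for each antagonist, out of the 20 arrays of the series. All mice were female C57BL/6 animals bought at 6 weeks of age. Both antagonist groups received 3 µg of IL-23 into the skin of the back on days 1 to 4 and 15 mg/kg of antagonist under the skin, away from that site, on days 4 to 6, and full-thickness skin was taken on day 7. The other groups of 5 each, IL-23-injected mice given saline and naïve mice, served as reference levels and shared in the estimate of the spread. The series' own design text speaks of different doses of a single antagonist, whereas the labels give 2 antagonists at 1 dose, and the labels were followed. Each array was 1 mouse. Mice keep the numbers of the labels: IMO-8400 was given to mice 1 to 5 and IMO-3100 to mice 6 to 10, while mice 11 to 15 had saline and mice 16 to 20 were naïve.

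TLR7, TLR8 and TLR9 are Toll-like receptors (TLRs) of the endosome that sense nucleic acids, the former pair binding RNA and TLR9 binding DNA rich in unmethylated CpG. Their signals pass through the adaptor MyD88 to NF-kB and to interferon regulatory factors, and in plasmacytoid dendritic cells they drive type I interferon. IMO-3100 is described as an antagonist of TLR7 and TLR9, and IMO-8400 as one of TLR7, TLR8 and TLR9. TLR8 responds weakly in mice to the RNA ligands that activate the human receptor. IL-23 maintains IL-17-producing T cells, and its injection thickens the epidermis and draws in neutrophils and other leukocytes.

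The Affymetrix mouse arrays gave 45101 probe-sets on a log2 scale from 2.02 to 15.8, on which a difference of 1 is a 2-fold change. The median of an array lay between 6.23 and 6.29 in the IMO-8400 mice and between 6.14 and 6.18 in the IMO-3100 mice. The difference between the 3′ and 5′ Gapdh control probe-sets, a sign of RNA quality, was 0.631 to 0.740 in the IMO-8400 mice and 0.557 to 0.699 in the IMO-3100 mice. For Actb the same difference was 0.787 to 0.947 and 0.769 to 0.853. Naïve mouse 16 stood apart from the other naïve mice, with the lowest means of the group for macrophage (9.38), T cell (5.07) and interferon genes (8.20), and it enters the common spread. Calls from a model of the 10 antagonist arrays alone are therefore given as well. No 2 arrays held the same values.

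The antagonists differed in few genes past the study's cut-offs. Gene lists with the lowest medians in IMO-8400 relative to IMO-3100 skin were the type I interferon signature (-0.82), B and plasma cells (-0.57) and Toll-like receptors (-0.36). Those with the highest were smooth muscle (0.70) and blood endothelium (0.56), apart from a list of developing muscle genes (1.73) that was drawn up after values had been seen. At a false-discovery rate (FDR) under 0.05 and a fold change (FCH) over 2, 179 of 30960 probe-sets tested differed, or 0.578%. Of these, 103 (0.333%) were higher in IMO-8400 skin and 76 (0.245%) were lower, for 77 and 54 named genes. The median FCH among them was 2.36, and 22 exceeded 4-fold, 11 in each direction. With no FCH threshold 1163 probe-sets passed (3.76%), 563 higher and 600 lower. The share of higher calls was 57.5% as deposited, 50.3% with arrays set to a common 75th percentile and 43.1% after quantile normalization. In the model of the 10 antagonist arrays alone 333 probe-sets passed both cut-offs (1.08%), 135 higher (0.436%) and 198 lower (0.64%), and 152 of the 179 were among them.

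For most probe-sets the data bounded the difference. The 95% interval lay within a 2-fold difference for 25301 probe-sets (81.7%). Among the 5108 probe-sets that IL-23 with saline changed against naïve skin, 2498 had such an interval (48.9%). The median difference over all probe-sets was 0.02, and the median size of a difference was 0.19, against 0.37 between saline and naïve skin. Of all probe-sets 54.5% lay above zero as deposited, and 49.1% with arrays set to a common 75th percentile. The values of the antagonist groups did not overlap in 2988 probe-sets (9.65%): all 5 IMO-8400 mice were above all 5 IMO-3100 mice in 5.03% and below them in 4.62%. Among the 179 called probe-sets, 139 did not overlap.

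The first principal component of the 10 arrays held 32.6% of the variance and placed all IMO-8400 mice on one side of zero (21.7 to 50.5) and all IMO-3100 mice on the other (-43.5 to -22.2). The second component, with 13.8%, ran within the IMO-3100 group, from 53.3 in mouse 6 to -34.1 in mouse 9.

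**Figure D1:**
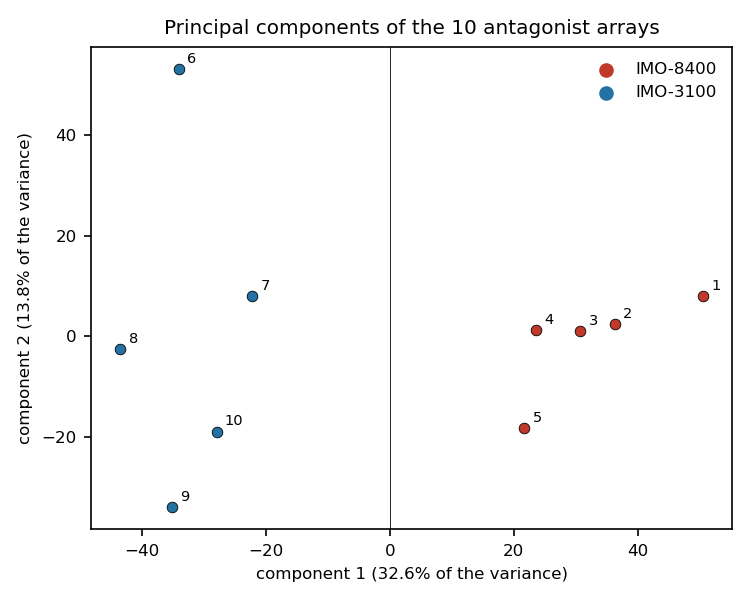
Principal components of the 10 antagonist arrays, with component 1 on the horizontal and component 2 on the vertical axis, in arbitrary units. Each point is a mouse with its number, red for IMO-8400 and blue for IMO-3100. The groups fall on opposite sides of zero on component 1, which holds 32.6% of the variance.

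Levels in saline and naïve skin place these genes beside the IL-23 response. IL-23 with saline changed 5108 probe-sets against naïve skin (16.5% of those tested), and 72 of them (1.41%) were called between the antagonists. Among the 103 called higher in IMO-8400 skin, IL-23 had lowered 36 and raised 12, and 55 were not called in that comparison. Among the 76 called lower, IL-23 had raised 23 and lowered 1, and 52 were not called. The IMO-8400 mean lay nearer the naïve mean than the IMO-3100 mean did for 145 of the 179 (81%), for 3370 of the 5108 IL-23-responsive probe-sets (66%) and for 17609 of all 30960 (56.9%). Within the IL-23-responsive probe-sets this share was 57% of those raised by IL-23 and 73.6% of those lowered. The naïve mice differed widely in hair shaft genes, with list means from 3.65 to 12.92, against 3.17 to 3.36 in saline mice. IMO-8400 mouse 5 stood at 5.94 there. The part of hair genes in these shares was not tested. The saline mean lay between the antagonist means for 70 of the 103 higher and 56 of the 76 lower probe-sets. Against saline, IMO-8400 skin had 2490 calls (1380 higher) and IMO-3100 skin had 1988 (833 higher). Those 2 comparisons share the saline arrays.

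Gpr31b, a G protein-coupled receptor gene named here after its values were seen, was lower in IMO-8400 skin. Its level was 2.20, 2.66, 2.16, 2.14 and 3.23 in the IMO-8400 mice and 7.89, 7.53, 7.84, 7.36 and 7.77 in the IMO-3100 mice. The groups did not overlap, and 4 of the 5 IMO-8400 mice were under 3, the level taken as near background. The log2 difference was -5.20 ± 0.26 (SE, adjusted p = 1.24e-09) as measured and -3.68 with values under 4 set to 4, so its size depends on values near background. The saline mean was 5.71 and the naïve mean 2.14. Cabp4, which encodes a calcium-binding protein known from photoreceptors, was 2.12 in all 5 IMO-8400 mice and 5.98, 5.53, 5.90, 4.92 and 5.40 in the IMO-3100 mice. It was at least 5.84-fold lower in IMO-8400 skin (adjusted p = 6.23e-11). Its saline mean was 2.16 and its naïve mean 2.04, so IMO-3100 skin alone held a level above 3. Both calls were kept when any 1 antagonist mouse was left out.

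Receptors of natural killer and myeloid cells followed. Klra2, a Ly49 family lectin-like receptor, was 3.32, 6.63, 4.68, 4.79 and 7.70 in the IMO-8400 mice and 9.86, 9.81, 9.89, 9.21 and 9.63 in the IMO-3100 mice. The IMO-3100 level was close to the saline mean of 9.79, and the naïve mean was 3.80. The difference was -4.26 ± 0.77 (adjusted p = 0.0105). Klra17, of the same family, was 5.75 to 7.33 against 8.01 to 10.19, a difference of -2.25 (adjusted p = 0.0156). Genes of this family are near-identical, so these probe-sets may read their neighbours too. Of 17 C-type lectin-like receptor genes tested, these 2 were called lower and none higher (background 0.245% lower), and the list's median was -0.29. That list was drawn up after values had been seen. With the antagonist arrays alone Clec4a2, an inhibitory lectin receptor of dendritic and myeloid cells, was called as well (-1.24, adjusted p = 0.0101 in that model). Without mouse 2 the Klra17 call was lost in the antagonist-only model (adjusted p = 0.0585). A separate list of natural killer and cytotoxic cell genes did not lie lower. Of its 14 tested genes 9 lay above zero (54.5% of all probe-sets did), with a median of 0.14 and no call in either model. By limma 1 of them had an unadjusted p under 0.05 with all groups.

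Lipg, the endothelial lipase that cleaves phospholipids of high-density lipoprotein, was lower on both of its probe-sets. On the first it was 6.18, 7.53, 8.15, 7.28 and 8.59 in the IMO-8400 mice and 10.52, 11.76, 10.13, 10.36 and 9.95 in the IMO-3100 mice, with no overlap. The differences were -3.00 ± 0.43 (adjusted p = 0.00237) and -2.97 ± 0.36 (adjusted p = 0.000725). The saline mean of 9.65 and the naïve mean of 8.57 both lay between the antagonists on the first probe-set. On the second, IMO-8400 skin was below saline (-1.88) and IMO-3100 skin above it (1.09), and both differences from saline were called.

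Further leukocyte genes were lower in IMO-8400 skin with no overlap between the groups. Bank1, a B cell scaffold protein, differed by -3.34 (adjusted p = 0.0329), Cd53, a leukocyte tetraspanin, by -2.13 (adjusted p = 0.0141) and Gpr18, a lymphoid and myeloid receptor, by -1.57 (adjusted p = 0.0388). Fgl2, a prothrombinase of activated macrophages, differed by -1.47 (adjusted p = 0.0120) and Pdcd1lg2, the PD-1 ligand PD-L2, by -1.38 (adjusted p = 0.0268). The Bank1 level was 2.55 to 3.72 against 5.89 to 7.69, with 6.23 in naïve skin, so there IMO-3100 lay nearer naïve. All its IMO-8400 values lay under the floor of 4 used as an alternative, so the size of its difference depends on low values. Fgl2 was 9.38 to 9.89 against 10.95 to 11.27. The Cd53 and Fgl2 calls were kept without any 1 antagonist mouse. The Gpr18 call was lost without each of the 10 in turn (adjusted p up to 0.0853, without mouse 8), that of Bank1 without 9 of them (up to 0.0872, without mouse 2) and that of Pdcd1lg2 without mouse 1, 8 or 10 (up to 0.0745, without mouse 8). In the antagonist-only model Gpr18 and Bank1 were called at adjusted p = 0.00618 and 0.00621 and kept without any mouse, whereas Pdcd1lg2 (0.0496) lost its call there without 9 of the 10 (up to 0.106, without mouse 8).

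The remaining genes of the largest falls had mixed roles. Gm6377 (-2.72), St18 (-1.63), Tor3a (-1.54), St7 (-1.52) and Gfi1b (-1.50) kept their calls without any 1 mouse, whereas Cyria (-1.82) and Usp32 (-1.48) lost theirs without 9 and 7 of the 10. In the antagonist-only model Gfi1b lost its call without mouse 2, 8 or 10 (adjusted p up to 0.0609). Gfi1b, a repressor of megakaryocyte and erythroid precursors, was 3.25 to 3.58 in the IMO-8400 mice and 3.76 to 5.44 in the IMO-3100 mice. All its IMO-8400 values lay under the floor of 4 used as an alternative, so the size of its difference depends on low values. St7 had the smallest adjusted p of these 7 (0.000194). Bex6, Dgkh, Pou2f2 and Uba6 were under 3 in all 5 IMO-8400 mice and at least 1.54-fold, 1.37-fold, 1.28-fold and 1.21-fold lower there. Their calls were lost without 7, 8, 1 and 1 of the 10 mice. In the antagonist-only model Dgkh was not called (adjusted p = 0.0714), and Bex6, Pou2f2 and Uba6 lost the call without 9, 4 and 9 of the mice. A brighter Uba6 probe-set was also called (-1.20, adjusted p = 0.00146).

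**Figure D2:**
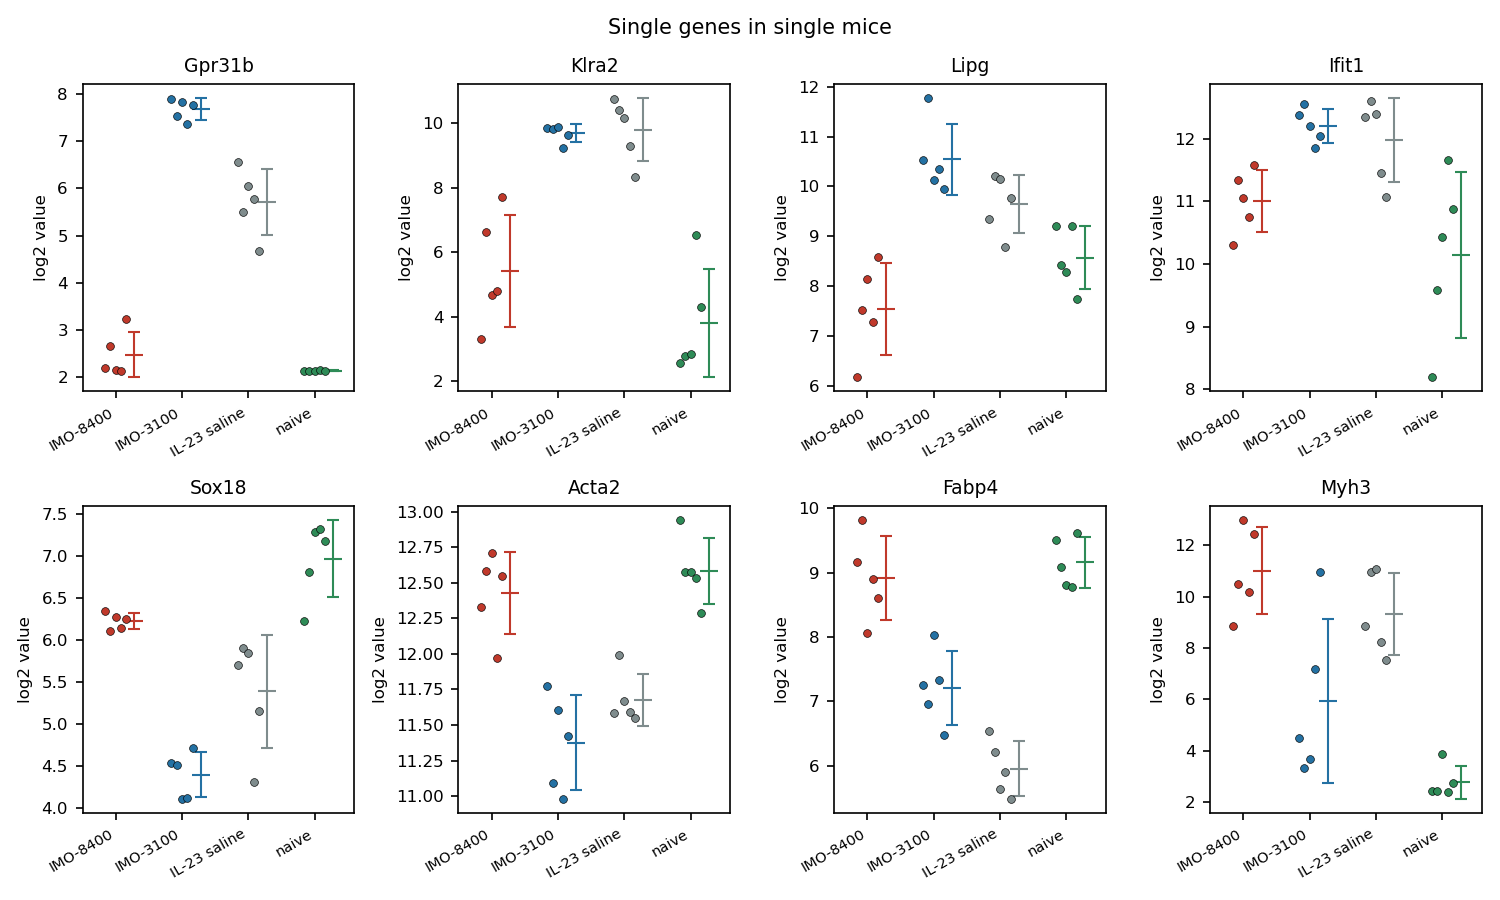
Log2 values of 8 genes in single mice, 1 panel a gene, with the 4 groups of 5 mice on the horizontal axis. Points are mice, and the bar beside them is the mean ± SD. Gpr31b, Klra2, Lipg and Ifit1 were lower in IMO-8400 than in IMO-3100 mice, and Sox18, Acta2, Fabp4 and Myh3 were higher, with overlap between the antagonists for Myh3 alone.

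Type I interferon-stimulated genes lay lower in IMO-8400 skin, though none was called in the model of all groups. All 34 tested genes of the signature lay below zero, with a median of -0.82 beside 0.02 over all probe-sets. By limma 0 passed both cut-offs, while 16 had an unadjusted p under 0.05, all lower. Over all probe-sets 21.5% had such a p, 12% higher and 9.49% lower. In 16 of the 34 all 5 IMO-8400 mice were below all 5 IMO-3100 mice (background 4.62%). With the antagonist arrays alone 10 were called lower (background 0.64%) and 20 passed the FDR alone. In that model 8.7% of all probe-sets passed the FDR alone, in either direction. The mean of the list ranged from 10.48 to 11.39 in the IMO-8400 mice and from 11.38 to 12.14 in the IMO-3100 mice, so the groups just overlapped. The saline mean was 11.55 and the naïve mean 10.11. The 9 markers of plasmacytoid dendritic cells had a median of 0.02, and limma called 0 of them in either model (1 had an unadjusted p under 0.05 with all groups). Among them Cox6a2 also stands in the skeletal muscle list and Klk1 in a list of secretory glands, so the median does not describe those cells alone. In bulk skin, fewer cells of a type and less RNA per cell cannot be told apart.

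Ifit1, an interferon-induced protein that binds viral RNA, was 10.30, 11.35, 11.06, 10.75 and 11.57 in the IMO-8400 mice and 12.38, 12.55, 12.20, 11.85 and 12.05 in the IMO-3100 mice. The groups did not overlap, and the difference was -1.20 (adjusted p = 0.150 with all groups, 0.0246 with the antagonist arrays alone). Ddx60, a helicase of antiviral sensing, was 9.05 to 9.94 against 10.30 to 10.84 (-1.08, adjusted p = 0.256 and 0.0139). Stat2, the transcription factor that carries the interferon signal to these genes, differed by -1.02 (adjusted p = 0.106 and 0.0498). The others called in the antagonist-only model were Cmpk2 (-1.39), Herc6 (-1.28), Usp18 (-1.18), Dhx58 (-1.17), Ifit2 (-1.13), Zbp1 (-1.07) and Oasl2 (-1.04). Each of the 10 lost its call without at least 1 of the mice. That of Stat2 was lost without 9 of the 10 (adjusted p up to 0.108, without mouse 1), that of Ddx60 without mouse 4 or 6 because the FCH fell under 2, and that of Ifit1 without mouse 8 (adjusted p = 0.0571). Eif2ak2, the double-stranded RNA-activated kinase, was called with all groups on 1 probe-set (-1.18, adjusted p = 0.0168, lost without mouse 1 at 0.0508) and not on the brighter one (-0.55, adjusted p = 0.232).

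Promoters of these genes are shown because the list was chosen for its response to interferon, whose factor complex reads spaced GAAA letters. Letters were searched as GAAANNGAAA on both strands from 250 bases before to 50 after each start site, in the RefSeq promoters of GRCm38.p6. They occurred in 1079 of 27025 genes with a promoter there (3.99%). Of the 34 signature genes 23 had a promoter, and 12 of them held the letters (52.2%). Of the 3 genes below, Ifit1 and Ddx60 hold them at 2 places and Stat2 at 1, capitals marking the matches, written from the strand of the gene.
Ifit1, chr19:34640745-34640853, + strand: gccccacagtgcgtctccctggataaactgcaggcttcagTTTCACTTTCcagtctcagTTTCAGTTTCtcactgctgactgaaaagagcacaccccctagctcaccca
Ddx60, chr8:61927994-61928086, + strand: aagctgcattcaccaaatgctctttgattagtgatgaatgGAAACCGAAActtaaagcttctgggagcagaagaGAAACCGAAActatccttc
Stat2, chr10:128270248-128270325, + strand: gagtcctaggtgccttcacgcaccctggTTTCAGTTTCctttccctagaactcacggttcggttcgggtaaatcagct
Among genes called between the antagonists with all groups, the letters were in 6 of 42 promoters of genes lower in IMO-8400 skin (14.3%) and in 1 of 56 of genes higher (1.79%). A match describes letters and shows no binding.

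Genes of the interferon-gamma axis behaved unevenly. Of 24 tested, 18 lay below zero with a median of -0.23, and limma called 0 with all groups. Of the 24, 7 had an unadjusted p under 0.05, all lower, against 9.49% of all probe-sets. With the antagonist arrays alone 4 were called lower (background 0.64%), the GTPases Irgm1 (-1.15), Iigp1 (-1.16), Gbp3 (-1.04) and Gbp6 (-1.02), which defend cells against intracellular microbes. Irgm1 kept that call without any 1 mouse. Gbp3 lost it without mouse 1 or 8, Iigp1 without mouse 1 or 2 and Gbp6 without mouse 1, 4, 7 or 10, at an adjusted p of at most 0.0521. Irgm1 was 9.76, 10.36, 10.33, 9.90 and 10.71 in the IMO-8400 mice and 11.68, 11.64, 11.28, 10.95 and 11.24 in the IMO-3100 mice, the latter near the saline mean of 11.46. Class I MHC genes had a median of -0.12 over 14 genes and class II genes 0.17 over 11, and none was called in either fit at its brightest probe-set. On dimmer probe-sets Erap1, a peptide trimmer of the class I pathway, was called lower in both fits (-1.07, adjusted p = 0.0352 with all groups and 0.0282 with the antagonist arrays alone). There Ciita (1.30, adjusted p = 0.0431) and H2-DMb2 (1.02, adjusted p = 0.0341), of the class II pathway, were called higher with the antagonist arrays alone and not with all groups.

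Toll-like receptor genes lay lower in IMO-8400 skin, most of them without a call. Tlr8 was 2.40, 3.39, 3.85, 2.02 and 3.85 in the IMO-8400 mice and 4.94, 4.85, 4.12, 4.52 and 3.91 in the IMO-3100 mice. The groups did not overlap, but the difference of -1.37 missed the cut-off (adjusted p = 0.0808, interval -2.28 to -0.45). Some IMO-8400 mice were under 3, the level taken as near background, so the size of this difference depends on values near background. Tlr7 was 9.57 to 11.01 against 10.95 to 11.44, a difference of -0.70 with an interval of -2.0 to 0.60 on its brightest probe-set and -0.48 and -0.58 on the others. Tlr9 was on the arrays but did not pass the filter for testing, so no difference is given for it. Of 20 receptor and endosomal machinery genes tested, 15 lay below zero, the median was -0.36, and 7 had all IMO-8400 mice below all IMO-3100 mice (background 4.62%). By limma 0 were called with all groups, and 3 had an unadjusted p under 0.05, all lower (9.49% of all probe-sets were lower with such a p).

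With the antagonist arrays alone, Tlr1 and Tlr4, cell-surface receptors for bacterial lipopeptide and lipopolysaccharide, were called lower (background 0.64%). Tlr4 was 9.60, 10.01, 9.98, 9.35 and 10.16 against 11.01, 10.62, 11.30, 10.89 and 10.97, a difference of -1.14 (adjusted p = 0.0134, and 0.0933 with all groups). Its call was kept without any 1 mouse, whereas that of Tlr1 (-1.09, adjusted p = 0.0223, and 0.307 with all groups) was lost without mouse 2, 4, 8 or 10. Tlr3, the sensor of double-stranded RNA, was called lower with all groups on its dimmer probe-set (-1.28, adjusted p = 0.0250) and differed by -0.30 on the brighter one (adjusted p = 0.427). The dimmer probe-set's call was lost without mouse 1, 2, 8 or 10. Adaptors and inhibitors of TLR signaling had a median of -0.0015 over 19 genes.

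Monocyte and macrophage markers lay lower as well. Of 18 tested, 17 lay below zero with a median of -0.33, and the list mean was 11.80 to 12.40 in the IMO-8400 mice and 12.54 to 12.78 in the IMO-3100 mice, without overlap. By limma 0 were called with all groups (1 was lower with an unadjusted p under 0.05, against 9.49% of all probe-sets). Itgam, the integrin alpha M of myeloid cells, was 5.18, 6.02, 4.69, 4.02 and 6.45 against 8.13, 6.77, 7.66, 7.63 and 7.45. It differed by -2.26 (adjusted p = 0.0774 with all groups, 0.0257 with the antagonist arrays alone), and the latter call was lost without mouse 1, 3, 8, 9 or 10 (adjusted p up to 0.0600, without mouse 8). Adgre1, which encodes F4/80, was 13.40 to 13.83 against 13.92 to 14.28 (-0.48, adjusted p = 0.435). The broad markers Csf1r (-0.01, interval -0.50 to 0.48) and Cd68 (-0.15, -0.85 to 0.54) had intervals within a 2-fold difference. IMO-8400 mouse 4 had the lowest list mean of the 10, and the other 4 IMO-8400 means were still below every IMO-3100 mean. The part of cell number in this shift was not tested. A separate list of alternatively activated macrophage genes did not share it. Of its 13 tested genes 7 lay above zero, near the 54.5% of all probe-sets, with a median of 0.02 and no call in either model. By limma 3 had an unadjusted p under 0.05 with all groups, all higher (background 12%).

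Other leukocyte genes called lower only in the antagonist-only model had known roles in myeloid or lymphoid signaling. They were named after their values were seen, and 0.64% of all probe-sets were called lower in that model. Il10, the anti-inflammatory cytokine, was 6.91, 7.50, 7.36, 6.33 and 7.75 in the IMO-8400 mice and 10.04, 8.87, 8.97, 8.90 and 8.78 in the IMO-3100 mice. It differed by -1.94 (adjusted p = 0.0153, and 0.150 with all groups) and kept the call without any 1 mouse. Batf3, a factor of cross-presenting dendritic cells, differed by -1.46 (adjusted p = 0.0197) and Fpr2, a formyl peptide receptor, by -1.62 (adjusted p = 0.0162), both kept without any mouse. Ccl4 (-1.64), Cd79b of the B cell receptor (-1.61) and Batf (-1.40) were called at adjusted p = 0.0416, 0.0203 and 0.0246 and lost the call without 8, 1 and 3 of the 10 mice. With all groups none of these 6 was called. In the antagonist-only model 2 of 13 dendritic cell genes (list median -0.04) and 1 of 11 neutrophil genes (0.07) were called lower. So were 1 of 23 CC chemokine and receptor genes (-0.08) and 1 of 9 B and plasma cell genes (-0.57).

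T cell genes did not follow the myeloid ones. Of 18 T cell genes 14 lay above zero (54.5% of all probe-sets did), with a median of 0.27 and no call in either model. By limma 1 of the 18 had an unadjusted p under 0.05 with all groups. Cd3e differed by 0.02 with an interval of -0.44 to 0.48. A gamma delta T cell list lay above zero in 5 of 5 tested genes, with a median of 0.32. Its list mean was 5.94 to 6.36 against 5.43 to 5.79, without overlap. None of the 5 was called with all groups. With the antagonist arrays alone 1 was called higher (background 0.436%), Cd163l1 (1.04, adjusted p = 0.0431), a call kept in only 1 of the 10 fits without a mouse. Il2ra, the high-affinity interleukin 2 receptor chain, was called higher in IMO-8400 skin. It was 6.07, 5.99, 6.99, 5.49 and 5.34 against 4.80, 4.85, 4.71, 4.70 and 4.52, a difference of 1.26 ± 0.23 (adjusted p = 0.0105), kept without any 1 mouse. In the antagonist-only model the call was lost without 5 of the 10 (adjusted p up to 0.0720, without mouse 2). Both antagonist groups were below the saline mean of 7.76.

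Some genes of the vessel wall were called higher in IMO-8400 skin. Sox18, a transcription factor of endothelial cells, was 6.34, 6.11, 6.27, 6.15 and 6.25 in the IMO-8400 mice and 4.53, 4.51, 4.11, 4.11 and 4.71 in the IMO-3100 mice. The groups did not overlap, and the difference was 1.83 ± 0.26 (adjusted p = 0.00229). The saline mean of 5.39 lay between them and the naïve mean was 6.97. Tie1, an orphan receptor of endothelium, differed by 1.11 (adjusted p = 0.0380). Of 20 blood endothelial genes tested these 2 were called higher (background 0.333%), and 19 lay above zero with a median of 0.56. The FDR alone was passed by 5 of them (background 3.76%, either direction).

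In 7 of these 20 genes all 5 IMO-8400 mice were above all 5 IMO-3100 mice (background 5.03%). The list mean was 7.86 to 8.26 against 7.25 to 7.68 with a saline mean of 8.18, so it was the IMO-3100 mice that lay below both saline and IMO-8400. The general markers Pecam1 (0.07, interval -0.42 to 0.56) and Cdh5 (0.21, -0.02 to 0.45) had intervals within a 2-fold difference. Flt1, a receptor of vascular endothelial growth factor, was called on 1 probe-set (1.45, adjusted p = 0.00906) and not on its brighter one (0.80, adjusted p = 0.0534). Ccm2l, known from endothelial development of the heart, differed by 1.49 (adjusted p = 0.0473). Sox18 and Flt1 kept their calls without any 1 mouse, whereas Tie1 lost its call without 7 of the 10 (adjusted p up to 0.105, without mouse 1) and Ccm2l without 8 (up to 0.132, without mouse 1). Lymphatic endothelial genes had a median of 0.06 over 6 genes.

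All 14 smooth muscle and pericyte genes tested lay above zero (54.5% of all probe-sets did), with a median of 0.70. By limma 1 of them was called higher with all groups (background 0.333%) and 3 with the antagonist arrays alone (background 0.436%). Acta2, smooth muscle actin, was 12.33, 12.58, 12.71, 11.97 and 12.55 against 11.77, 11.10, 11.61, 10.98 and 11.43, without overlap. It was called higher at 1.05 ± 0.17 (adjusted p = 0.00476), and the naïve mean was 12.58. Without mouse 3, 7 or 9 the FCH fell under 2, with a lowest log2 difference of 0.95, and in the antagonist-only model the call was lost without mouse 2 too (adjusted p = 0.0505). The list mean was 9.77 to 10.28 in the IMO-8400 mice and 9.08 to 9.63 in the IMO-3100 mice. With the antagonist arrays alone Smtn, the smooth muscle protein smoothelin (1.01, adjusted p = 0.0135), and Cspg4, the pericyte proteoglycan NG2 (1.29, adjusted p = 0.0306), were called too, and lost the call without 3 and 6 of the 10 mice. Mrvi1 (1.49) and Cacna1c (1.42), which act in smooth muscle calcium handling, were called with all groups at adjusted p = 0.0418 and 0.0214 and lost the call without 7 and 4 of the 10. With the antagonist arrays alone Mrvi1 was not called (adjusted p = 0.0574), and Cacna1c lost its call without 7 of the 10.

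**Figure D3:**
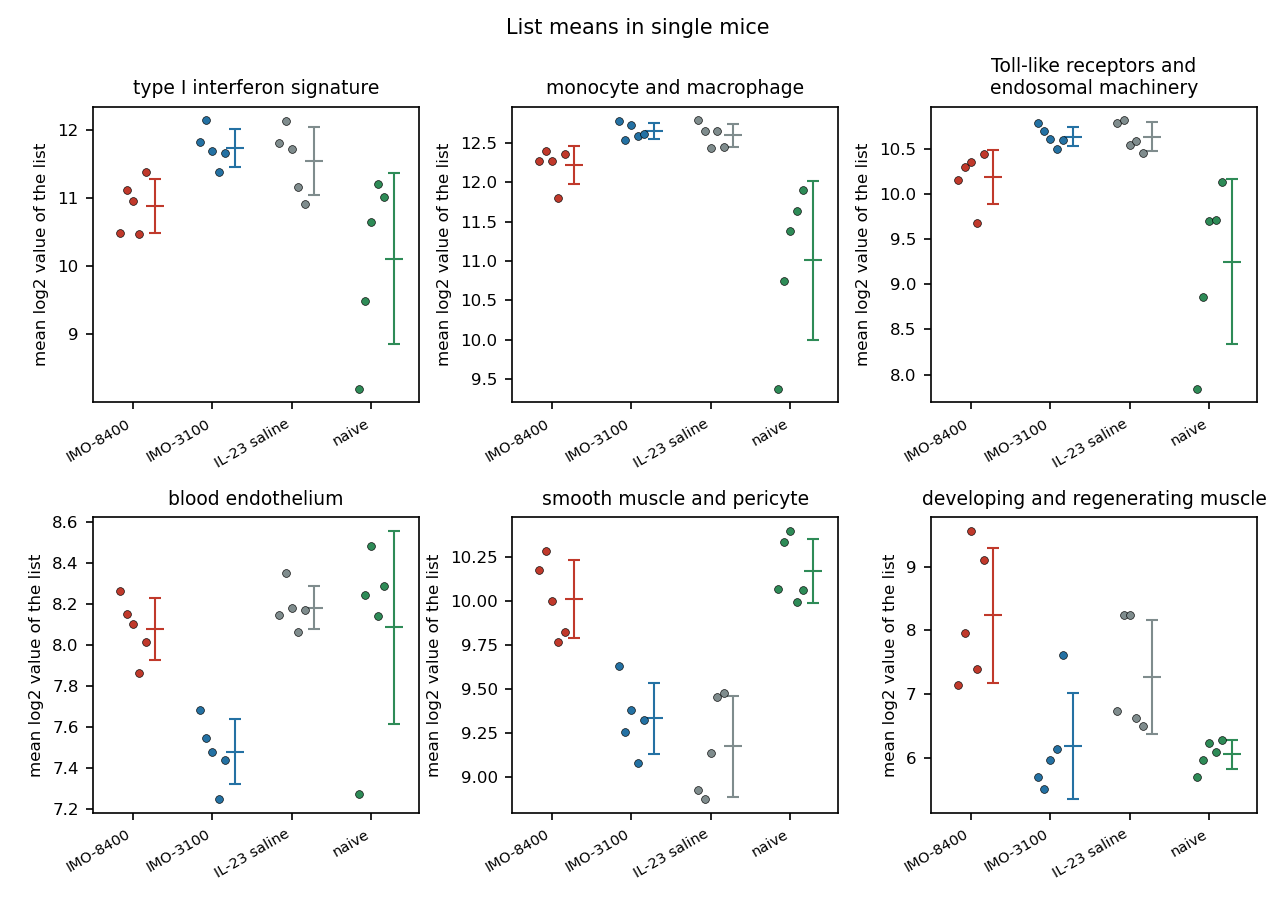
Mean log2 value over the tested members of 6 gene lists in single mice, 1 panel a list, with the 4 groups on the horizontal axis. Points are mice and the bar is the mean ± SD. The antagonist groups do not overlap for macrophage, Toll-like receptor, endothelial and smooth muscle genes, and they meet or overlap for the interferon signature and developing muscle.

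Genes of developing and regenerating skeletal muscle had the greatest median difference of any list, from a list drawn up after values had been seen. All 27 tested lay above zero, with a median of 1.73, and 9 were called higher (background 0.333%). Actc1, cardiac alpha actin, which regenerating fibres re-express, was 11.22, 12.92, 13.45, 10.85 and 13.48 in the IMO-8400 mice and 4.17, 3.37, 4.69, 9.08 and 11.89 in the IMO-3100 mice. IMO-3100 mouse 10 lay within the IMO-8400 range, so the groups overlapped, while mouse 9 lay below every IMO-8400 mouse but above mice 6 to 8. The difference was 5.74 ± 1.39 (adjusted p = 0.0311), and the call was lost without 7 of the 10 mice (adjusted p up to 0.0903, without mouse 8).

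Other fetal muscle proteins were called too. Myh3, embryonic myosin, was 8.87, 10.51, 12.99, 10.20 and 12.46 against 4.51, 3.33, 3.70, 7.18 and 10.97 (5.07, adjusted p = 0.0271). Myh8, perinatal myosin, differed by 4.33 (adjusted p = 0.0250), Tnni1, slow troponin I, by 4.41 (adjusted p = 0.0262) and Myl4, an embryonic light chain, by 2.93 (adjusted p = 0.0382). IMO-3100 mouse 10 again lay with the IMO-8400 mice. Each of these 4 calls was lost without at least 5 of the 10 mice, mouse 8 among them for all 4 (adjusted p = 0.0834, 0.0768, 0.0768 and 0.0981 without it). In the antagonist-only model Actc1 (adjusted p = 0.0587), Myh3 (0.0673) and Myl4 (0.0832) were not called, and 5 of the 27 genes were (background 0.436%).

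Of the other members, Igf2, the growth factor of fetal tissue and muscle repair, did not overlap. It was 7.89, 9.53, 10.25, 7.79 and 10.77 against 5.67, 5.38, 6.02, 6.04 and 7.59 (3.10, adjusted p = 0.0329, lost without 6 mice, up to 0.0838 without mouse 2). Dysf, the membrane repair protein dysferlin, differed by 1.35 (adjusted p = 0.0105) and kept its call without any 1 mouse, though in the antagonist-only model it was lost without 5 of the 10 (adjusted p up to 0.0703, without mouse 2). The myogenic factor Myog differed by 3.18 (adjusted p = 0.0735). In saline skin the list mean was 7.26, between 8.24 in IMO-8400 and 6.18 in IMO-3100 skin, and in naïve skin it was 6.05. Of 34 mature skeletal muscle genes 2 were called higher, Tnni1 and Myh8 (background 0.333%), 31 lay above zero, and the median was 0.24. The mean of that list differed by 0.66, with overlap. Ckm, the creatine kinase of mature muscle, differed by 0.38 with an interval of -0.29 to 1.05. How much muscle each piece of skin held was not tested.

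The promoter of Actc1 is shown because it led this list. It holds a CArG box, the letters read by serum response factor, which 488 of 27025 promoters hold (1.81%) and 2 of the 19 available for this list (10.5%). Capitals mark the match.
Actc1, chr2:114052876-114052962, - strand: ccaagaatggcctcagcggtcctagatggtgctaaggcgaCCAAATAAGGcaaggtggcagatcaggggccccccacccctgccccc

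Some lipid genes were called higher in IMO-8400 skin. Fabp4, the fatty acid carrier of adipocytes and capillary endothelium, was 9.17, 9.82, 8.06, 8.91 and 8.60 against 7.26, 6.96, 8.04, 7.33 and 6.47 on 1 probe-set, without overlap. The difference was 1.70 ± 0.31 (adjusted p = 0.0105), kept without any 1 mouse (in the antagonist-only model lost without mouse 1, 2, 9 or 10, adjusted p up to 0.0653), with 5.96 in saline and 9.16 in naïve skin. On the far brighter probe-set it was 0.11 (interval -0.08 to 0.30), so the gene's probe-sets disagreed. Of 22 genes of fatty acid synthesis and oxidation, Acacb (1.16, adjusted p = 0.0367), the mitochondrial acetyl-CoA carboxylase, and Ppara (1.12, adjusted p = 0.0444), the lipid-sensing nuclear receptor, were called higher (background 0.333%). The list mean was 11.41 to 11.60 against 11.00 to 11.28, its median was 0.25, and 20 of 22 lay above zero.

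Ppara was 7.16, 7.01, 6.29, 6.90 and 6.57 in the IMO-8400 mice and 5.76, 5.48, 5.60, 5.51 and 5.99 in the IMO-3100 mice, with 4.57 in saline and 7.50 in naïve skin. Its call with all groups was lost without each of the 10 mice in turn (adjusted p up to 0.115, without mouse 1), although the groups did not overlap, and that of Acacb without 7 (up to 0.104, without mouse 2). In the antagonist-only model Ppara was called at adjusted p = 0.0135 and kept without any mouse. Cers4, a ceramide synthase, differed by 1.20 and 1.10 on 2 probe-sets (adjusted p = 0.0197 and 0.0260). The call of the second, brighter one was lost without 6 of the 10 mice (up to 0.0783, without mouse 2), and that probe-set was not called with the antagonist arrays alone (0.0559). Alox15, a lipoxygenase of macrophages and eosinophils, differed by 2.04 (adjusted p = 0.0364) with overlap, and lost its call without 8 of the 10 (up to 0.102, without mouse 1) and with the antagonist arrays alone (0.0572). Adipocyte genes had a median of 0.29 over 17 genes with no call.

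Lgr5, a marker of hair follicle stem cells whose product takes part in Wnt signaling, was 6.69, 6.53, 5.04, 4.97 and 5.30 against 2.76, 3.17, 3.37, 3.62 and 4.27 on 1 probe-set. The difference was 2.27 ± 0.45 (adjusted p = 0.0141), kept without any 1 mouse (in the antagonist-only model lost without mouse 2 or 8, adjusted p up to 0.0514), whereas the brighter probe-set differed by 1.02 (adjusted p = 0.184). Of 31 Wnt genes 24 lay above zero (54.5% of all probe-sets did) with a median of 0.40. The list mean was 8.12 to 8.32 against 7.82 to 7.98. None passed both cut-offs by limma at its brightest probe-set (9 had an unadjusted p under 0.05, all higher, against 12% of all probe-sets). Dkk3 (0.74), Axin2 (0.69) and Lrp5 (0.56) passed the FDR alone (background 3.76%, either direction). Axin2, a feedback target of Wnt signaling, was 10.39 to 10.85 against 9.85 to 10.25.

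Hair shaft genes were above zero in 29 of 29, with a median of 0.41 and no call (by limma 1 had an unadjusted p under 0.05). That rested on IMO-8400 mouse 5, in which Krt25, an inner root sheath keratin, was 12.44 while the other 9 antagonist mice were at 2.02 to 2.57. Its list mean was 5.94, against at most 3.45 in any other antagonist mouse.

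Other genes of the largest rises were Kcna1 (2.04), Dusp27 (1.79), Trp73 (1.63), Cyp2d22 (1.58), Camk4 (1.50), Ncam1 (1.46) and Peg3 (1.43). Kcna1, a potassium channel of nerve, was 6.94 to 8.64 against 4.85 to 6.56, and both groups were above the saline mean of 3.58. Peg3, an imprinted gene of mesenchymal cells, was called on both of its probe-sets, and the one with the larger difference kept its call without any 1 mouse. The calls of Kcna1, Dusp27, Trp73, Camk4, Ncam1 and Cyp2d22 were lost without 7, 9, 9, 6, 7 and 3 of the 10, and Dusp27 was not called with the antagonist arrays alone (adjusted p = 0.0569). Uchl1 and Limch1 were near background in IMO-3100 skin and at least 3.06-fold and 2.04-fold higher in IMO-8400 skin. Both calls were lost without 8 of the 10 mice.

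Inflammatory genes that the IL-23 model is known for did not pass the cut-offs between the antagonists. Of 25 tested, 0 were called by limma in either model, and 3 had an unadjusted p under 0.05 with all groups (21.5% of all probe-sets did). Of the 25, 14 lay above zero, near the 54.5% of all probe-sets, and the intervals of 6 lay within a 2-fold difference. Il17a was near background in both groups, with 2.03 to 2.19 in the IMO-8400 mice and 2.02 to 2.03 in the IMO-3100 mice, against a saline mean of 5.71. Its difference was 0.03 with an interval of -0.42 to 0.48. Il6, Il24 and Cxcl11 were near background in both groups as well.

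Il1b, the inflammasome cytokine, was 9.49, 9.10, 10.37, 10.25 and 10.10 against 11.52, 11.61, 10.40, 10.69 and 10.23, a difference of -1.03 that missed the cut-off (adjusted p = 0.0916, interval -1.74 to -0.31). The saline mean of 13.46 was above both groups. Cxcl1, a neutrophil chemokine, went the other way with 1.24, 0.94 and 1.30 on its 3 probe-sets (adjusted p = 0.209, 0.304 and 0.126). Lcn2 differed by 0.59 (interval 0.09 to 1.09), Krt16 by 0.64 (-0.05 to 1.34) and S100a8 by 0.66 (-0.16 to 1.47). The intervals of Ifng (-1.35 to 0.44) and Cxcl9 (-1.95 to 0.30) allow a difference over 2-fold towards lower levels in IMO-8400 skin, and those of Defb3 and Cxcl11 allow one either way. Missing the cut-off does not show that the antagonists act alike on these genes. Nfkbiz, the IL-17-responsive nuclear inhibitor of NF-kB, passed the FDR alone (-0.50, adjusted p = 0.0252), with 12.31 to 12.71 against 12.86 to 13.11.

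**Figure D4:**
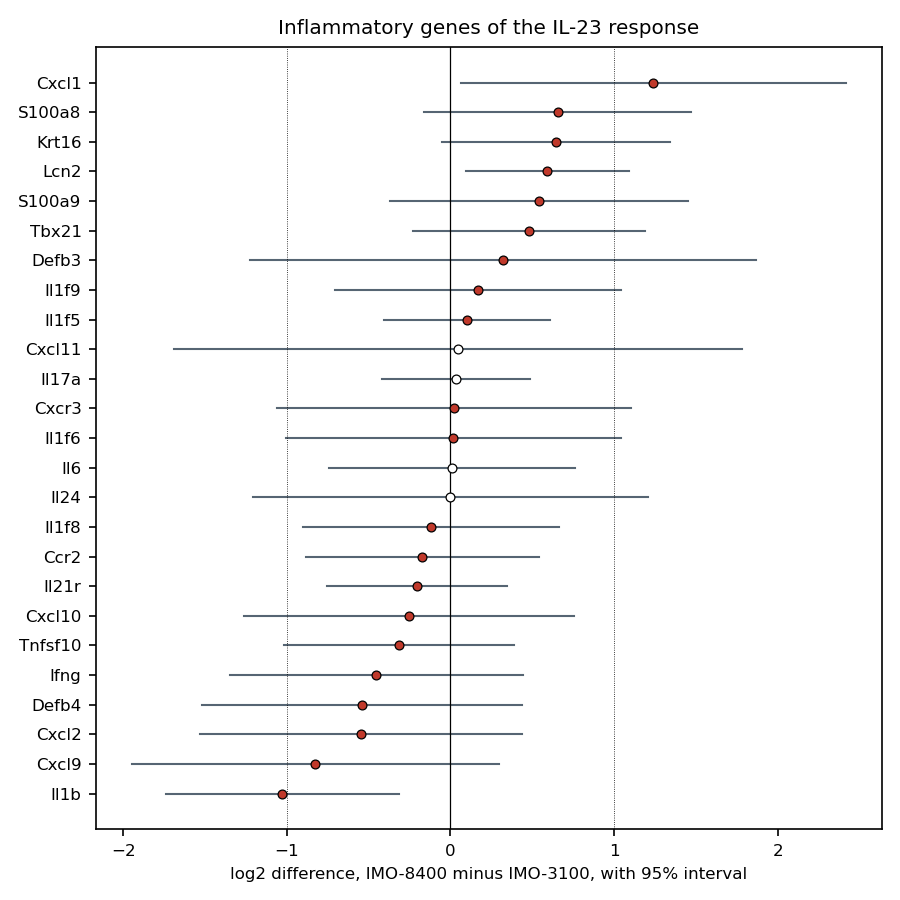
Log2 difference (IMO-8400 minus IMO-3100) of 25 inflammatory genes with its 95% interval, each at its brightest probe-set. Open points are genes near background in both groups, and dotted lines mark 2-fold differences. None passed the cut-offs, and the intervals of 6 genes lie within the dotted lines.

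For housekeeping lists the data were tight. All 25 proteasome, 30 respiratory chain and 9 ribosomal genes had intervals within a 2-fold difference, with medians of 0.03, 0.03 and -0.01. Fibroblast genes had 20 of 21 intervals within 2-fold (median 0.05), differentiating keratinocyte genes 19 of 22 (0.10) and NF-kB genes 17 of 18 (0.0033). Neutrophil genes had a median of 0.07 but only 2 of 11 intervals within 2-fold, so a difference there was poorly bounded. B and plasma cell genes had a median of -0.57 over 9 genes and complement genes -0.34 over 15, without a call with all groups. In each, by limma, 2 genes had an unadjusted p under 0.05 (21.5% of all probe-sets did). Langerhans cell genes were above zero in 8 of 8 with a median of 0.24, and the list mean was 11.02 to 11.20 against 10.76 to 10.98 without overlap, again without a call.

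**Figure D5:**
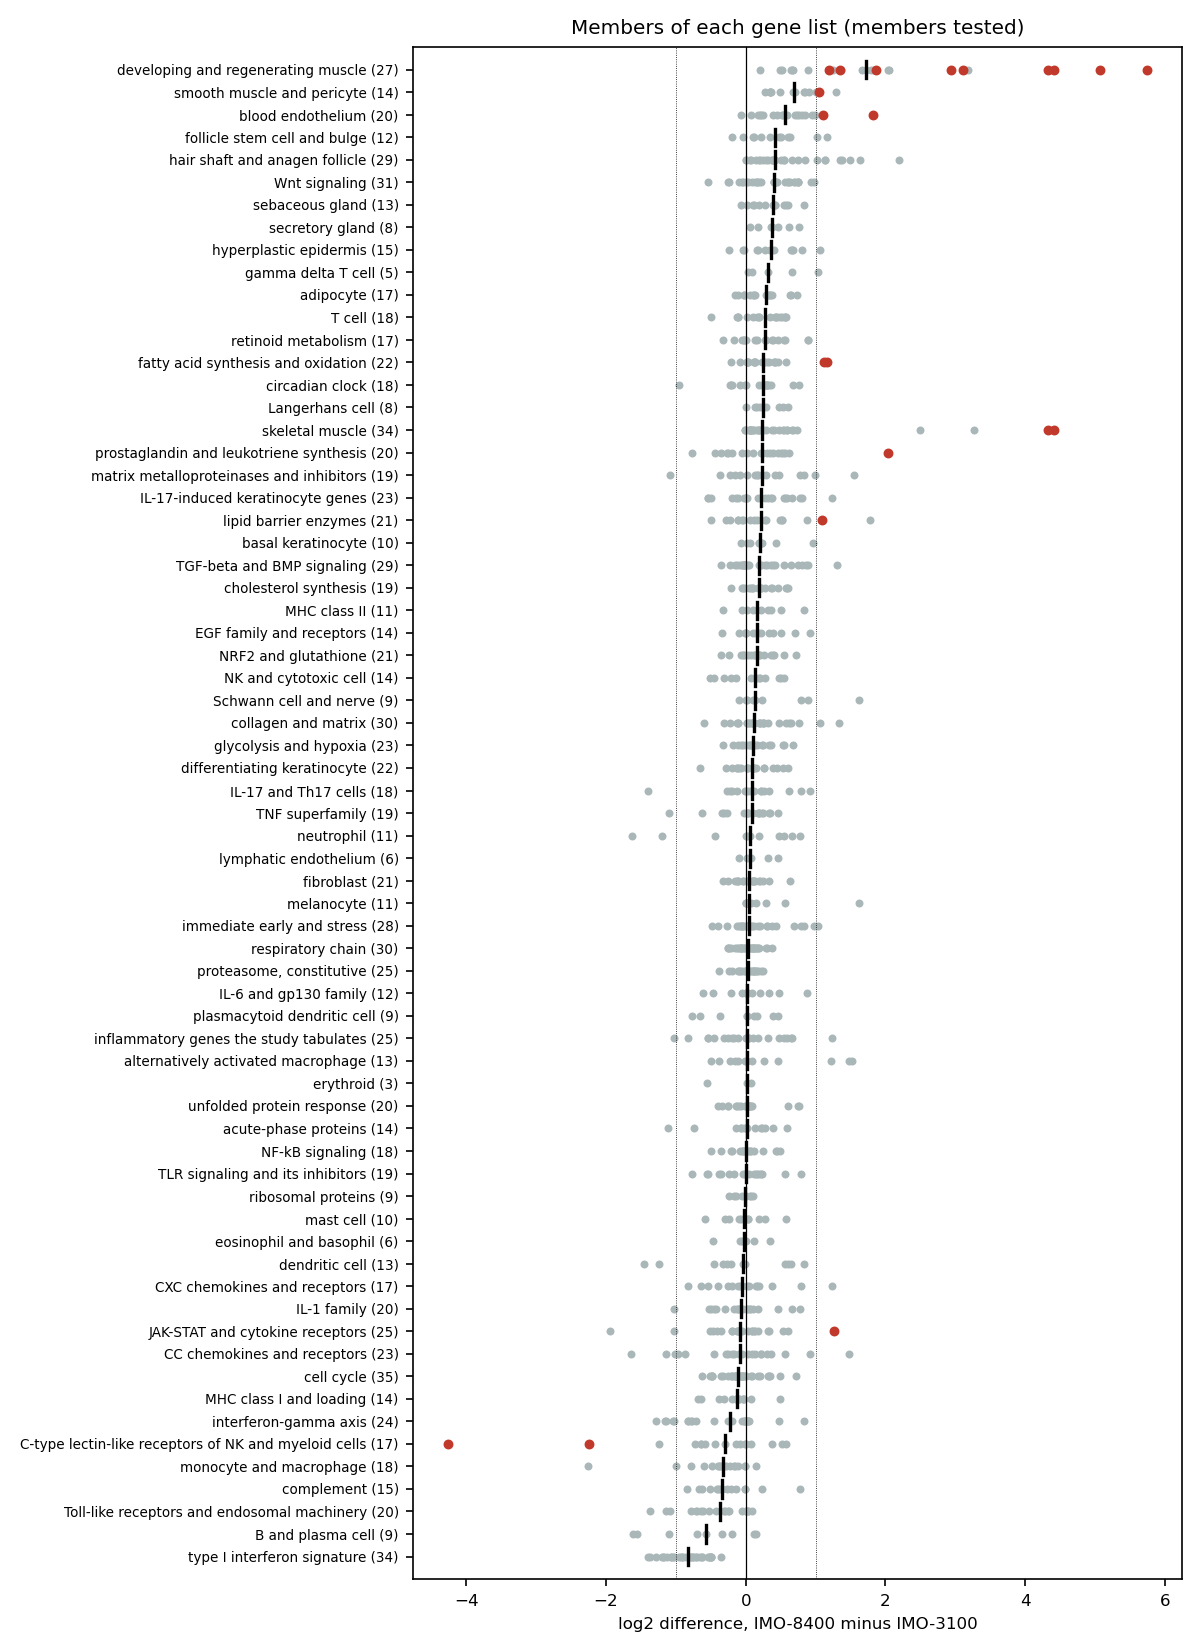
Log2 difference (IMO-8400 minus IMO-3100) of the members of 67 gene lists, ordered by the list's median, which is the black bar. Each point is a gene, red where it passed both cut-offs with all groups, and the number of members tested stands after the list's name. Developing muscle stands highest at 1.73 and the type I interferon signature lowest at -0.82.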

How the data were processed

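Full-thickness skin of 20 mice was measured on 1 array each, with 5 mice in each of 4 groups taken from the treatment in the labels. Per the labels and the study's methods, the authors normalized the arrays with GCRMA (version not given in the sources used here) and deposited log2 values, which were used as they stand. Scanner files and scan dates were not analysed here, and the labels name no batch. Since arrays give no read depth, their number limits the precision. A probe-set was tested if its SD over arrays exceeded 0.1 and 3 or more arrays exceeded 2 (30960 of 45101). Symbols came from the platform annotation: 34958 probe-sets had 1 gene symbol, 932 several and 9211 none, and 34754 were matched by Entrez number to RefSeq. A moderated linear model (limma 3.58.1, R 4.3.3) was fitted to all 4 groups, with 16 residual degrees of freedom, Benjamini-Hochberg adjustment over all probe-sets tested and calls at FDR under 0.05 with FCH over 2. The fit was tested on simulated data. Values under 3 were taken as near background, and a group with all 5 arrays there gave only a bound, with values under 3 raised to 3.

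The comparison, its lists and tests were chosen with earlier results of these data known. Of 67 gene lists, 2 were drawn up after values were seen. Lists are described by counts and medians, each gene at its probe-set of highest mean. Named genes are the 15 largest non-overlapping rises and falls with both means at least 3, up to 8 near-background calls each way, up to 6 called members of each list and the inflammatory genes the study tabulates. Others were named after their values were seen or because they marked a list: Gpr31b, genes called only in the antagonist-only model, those passing FDR alone and those given for their intervals. Replicates were separate mice. Alternatives covered the filter, the floor, scaling, the samples in the model, the variance prior, array weights, the call rule and leaving out single mice. Promoters and their letters came from RefSeq (GRCm38.p6).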

Additional observations from a re-analysis of the deposited data

Results flagged for a closer look

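In 30 of 327 groups of 5 antagonist mice examined (9.17%), 1 mouse lay far from the other 4, its gap to the nearest being over 0.71 of the group's range. Chance alone marks about 1 in 20 groups, and genes of 1 mouse are not independent. The share of the range taken by the gap is given for each.

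IMO-8400 mouse 5 stood high in hair genes, with 1 for Krt71, 0.947 for Krt25 and 0.931 for the mean of the hair shaft list. IMO-8400 mouse 4 stood low in leukocyte and TLR genes, with 0.815 for Unc93b1, 0.812 for Tlr1, 0.8 for Cxcr3, 0.784 for the macrophage list mean, 0.771 for Csf1r, 0.745 for Tlr6 and 0.712 for Batf. It was also low for the epidermal defensin Defb3 (0.723) and high for Ckm (0.838). Other IMO-8400 mice stood apart for Cxcl9 on its dimmer probe-set (0.843, mouse 2 low), Cxcl1 on 1 probe-set (0.778, mouse 1 low), Gfi1b (0.755, mouse 1 high) and Iigp1 (0.735, mouse 1 low).

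Among IMO-3100 mice, mouse 10 was high for Tnni1 (1) and mouse 9 for Defb4 (0.986). Mouse 7 was high for Lipg on 1 probe-set (0.922), Tlr6 (0.734) and Rsad2 (0.732) and low for Adgre1 (0.751). Mouse 6 was high for Il10 (0.845), Dgkh (0.818), Cd79b (0.814) and Dkk3 (0.731). Mouse 8 was high for Flt1 on its dimmer probe-set (0.829) and low for the T cell list mean (0.766). Mouse 9 was low for Mrvi1 (0.737) and for the fatty acid list mean (0.723).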

How the results depend on the processing

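The count of 179 called probe-sets was 114 with no filter, 333 with the 10 antagonist arrays alone, 388 without the naïve arrays, 498 with array weights and 1163 by FDR alone. It was 174 to 189 with a stricter filter, a floor of 4, either scaling or a trended robust variance prior. Leaving out 1 antagonist mouse gave 66 to 209, and the count moved by over 1.5 times without IMO-8400 mouse 1 (82) or 2 (71) and without IMO-3100 mouse 8 (66), 9 (106) or 10 (103). The next alternatives were added after seeing the data. Leaving out single saline or naïve mice gave 151 to 185, apart from naïve mouse 16 (359). Leaving 1 mouse out of the antagonist-only model gave 126 to 334. That model's 333 calls fell by over 1.5 times without mouse 1 (151), 2 (130), 3 (216), 8 (126), 9 (205) or 10 (188), and the count was 313, 334, 298 and 331 without mouse 4, 5, 6 and 7. The count of intervals within 2-fold was 25301 and became 39118 with no filter, as more probe-sets were tested, and 24396 to 27250 under every alternative except that one and the stricter filter (21683) and floor (23018).

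No named gene that was called turned direction under any alternative, while 13 named probe-sets that were not called changed sign in at least 1, Csf1r, Pecam1 and Defb3 among them. Of 157 named probe-sets, the antagonist-only model brought 26 calls and ended 8, leaving out the naïve arrays brought 25 and ended 1, array weights brought 25 and ended 2, no filter ended 20, the floor brought 3 and ended 11, and quantile normalization brought 1 and ended 5. Of 54 named probe-sets called, 20 were kept without any 1 antagonist mouse. No paired analysis was possible because the mice carry separate numbers and no pairing in the labels. The cause of these shifts was not tested.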
